A study of Mus musculus with 12 samples.

Results

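The genes described here encode the proteins of the cytosolic ribosome. They were taken by symbol: protein-coding mouse genes whose names start with Rpl or Rps and a digit, together with Rplp0, Rplp1, Rplp2 and Rpsa. Of 48709 gene identifiers in the count tables, 48349 were found in the GENCODE M21 annotation, and 102 protein-coding symbols fitted the pattern. Leaving out 10 Rps6k kinases and 6 symbols containing -ps left 86 genes. They comprise 43 proteins of the large subunit, 31 of the small subunit, the 3 stalk proteins (Rplp0, Rplp1 and Rplp2), 7 paralogues whose symbols end in l or l1, the retrogene copy Rps27rt, and Rps19bp1, which encodes a protein that binds Rps19 and is not itself ribosomal. Of the 86, 82 passed the filter on low counts and were tested. Rpl3l, Rpl10l, Rpl39l and Rps27rt did not pass.

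The study sequenced RNA from mouse embryonic fibroblasts (C57BL/6), which are cells cultured from mouse embryos. WT cells and TAZKo cells, described as lacking the cardiolipin-remodelling enzyme tafazzin and as isogenic, were kept in normoxia or for 24 hours in hypoxia, with 3 samples in each of the 4 groups. The labels give neither the mutation, nor the number of clones, nor the oxygen level, and name no other treatment of any group. Nor do the labels say that the samples came from separate cultures, so p-values measure only the spread between these samples, which may be technical.

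The ribosome of the cytosol reads every nuclear-encoded mRNA, and a cell needs its proteins in near-equal numbers because each sits once in almost every particle. The stalk, built from Rplp0 and dimers of Rplp1 and Rplp2, recruits the elongation factors to the large subunit. The mRNAs of ribosomal proteins carry a terminal oligopyrimidine tract (TOP), a run of C and T that opens the transcript, through which mTORC1 and the binding protein Larp1 govern their translation and stability. Mammalian genomes hold many processed copies of these genes, so short reads from them often fit more than 1 place.

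Total counts ran from 21039451 to 31204510 per sample. The Taz transcript, which encodes tafazzin, was not reduced in the libraries labelled TAZKo: it stood at 32.7 to 38 counts per 1000000 counts (CPM) in WT and 39.8 to 45.8 CPM in TAZKo in normoxia, and at 23.5 to 26.4 and 32.8 to 35.1 CPM in hypoxia. It was higher in the libraries labelled TAZKo by 0.285 on the log2 scale in normoxia and 0.43 in hypoxia (edgeR adjusted p = 0.0139 and 0.00112). Counts outside a deleted part check nothing, so TAZKo and WT stand throughout for the libraries labelled so. The summed level of 8 fibroblast markers was 10000 to 13000 CPM in every sample. However, Thy1 stayed between 0.0867 and 0.291 CPM and Col1a2 between 1.51 and 5.93 CPM. Most of that sum was Fn1 and Col1a1, and the markers moved in both directions: of the 7 tested, 4 were higher and 2 lower in TAZKo in normoxia and 3 higher and 2 lower in hypoxia by edgeR. Col1a1 stood at 2560 to 3300 CPM in WT and 1140 to 1160 CPM in TAZKo in normoxia, and Pdgfrb at 45 to 53.5 and 98.1 to 111 CPM. Among 4 epithelial markers Krt14 reached 218 to 279 CPM in WT and 98.3 to 107 CPM in TAZKo in normoxia, and 197 to 206 and 130 to 137 CPM in hypoxia. Of the other marker lists, the summed level of 3 endothelial genes was 11.4 to 17.5 CPM in WT and 2.82 to 6.34 CPM in TAZKo, that of 4 leukocyte genes 0.865 to 6.0 CPM, that of 3 muscle genes at most 0.0897 CPM and that of 4 germline or pluripotency genes 0.875 to 2.48 CPM. The endothelial sum was almost all Tek, at 11.1 to 17.4 CPM in WT and 2.72 to 5.72 CPM in TAZKo. Pecam1 went the other way in normoxia, at 0.109 to 0.354 CPM in WT and 0.505 to 0.618 CPM in TAZKo. Cdh5 reached at most 0.0692 CPM. In each of the leukocyte, muscle and germline lists 1 gene was at 0 in all 12 samples. The part of other cells in the results was not tested.

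The 86 genes together took 1.06 to 1.34% of all counts. In bulk RNA, fewer cells of a type and less RNA per cell cannot be told apart. The share was 1.19% ± 0.141 (SD, n = 3) in WT and 1.23% ± 0.0616 (SD, n = 3) in TAZKo in normoxia, and 1.09% ± 0.039 (SD, n = 3) in WT and 1.26% ± 0.0315 (SD, n = 3) in TAZKo in hypoxia. The lowest TAZKo hypoxia sample, 1.23%, lay above the highest WT hypoxia sample, 1.14%, while the normoxia groups overlapped.

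Counts were spread very unevenly over proteins that the ribosome holds in near-equal numbers. Rpl8, in the peptidyl transferase region of the large subunit, had a mean of 40810 counts per sample, Rpl4 had 27980 and Rplp0 had 26330. Rpl24 had 29 counts, Rpl23a 34.6, Rpl19 51.4, Rps27 80.1 and Rps6, the substrate of the S6 kinases, 88.6. Per kilobase of transcript, the mean level ran from 1.70 CPM per kb for Rpl24 to 1609 CPM per kb for Rpl8. Rps6, one of the genes used as a marker of the ribosome, therefore rested on 3.02 to 4.54 CPM per sample, and Rplp0, the other, on 890.9 to 1232 CPM.

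The level of a gene went with how much of its sequence is found elsewhere. The 50-base words of each principal transcript were searched in the transcripts of all other annotated genes, pseudogenes included. The 14 genes sharing under 20% of their words had a median of 61.7 CPM per kb, the 30 sharing 20 to under 50% had 91.8, the 23 sharing 50 to under 80% had 64.2 and the 19 sharing 80% or more had 13.5. Across the 82 tested genes Spearman's rho between the shared share and CPM per kb was -0.45, a description over genes that share libraries and differ in length and base composition. Rps27, with 98.7% shared, stood at 9.28 CPM per kb. Sharing was not the whole pattern: Rps29 (35.8% shared) had 6.01 CPM per kb and Rpsa (44%) 3.51, while Rps18 (86.7%) had 128.5. How reads with several matches were counted is not given in the sources used here. Differences between genes in the levels below are therefore read as counts assigned to a gene, not as amounts of its mRNA.

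**Figure D1:**
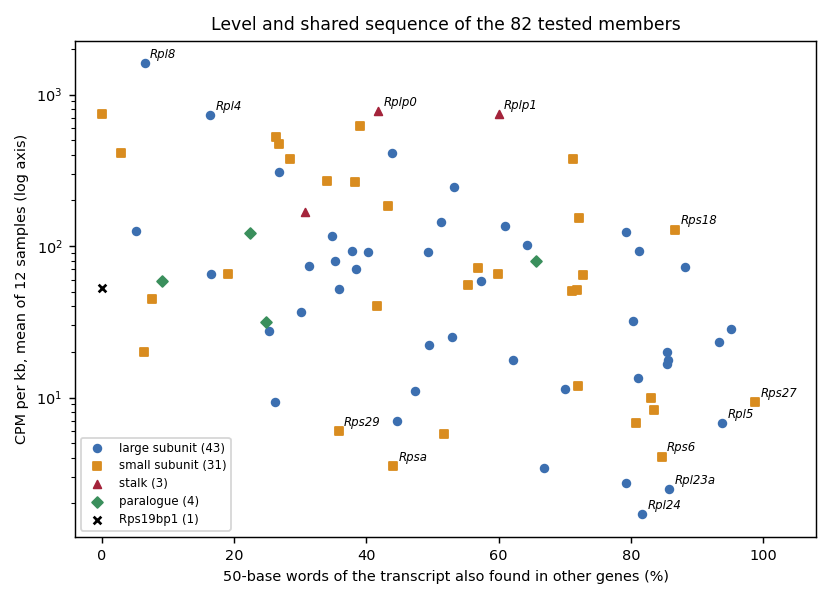
Mean level of each of the 82 tested genes over the 12 samples (y axis, CPM per kb, log axis) against the percentage of its 50-base words found in other genes (x axis), with symbols by role. Genes with 80% or more shared words lie mostly low, down to 1.70 CPM per kb for Rpl24, while Rpl8 lies at 1609.

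Rps27, its paralogue and its retrogene copy show what the counting faces. Their coding sequences, each of 255 bases, are given from the GENCODE M21 annotation on GRCm38, as the gene's strand reads, for Rps27 (chr3:90212725-90213615, minus strand, exons joined) and Rps27l (chr9:66946175-66949357, plus strand, exons joined), with capitals at the bases of Rps27l that differ from Rps27.
Rps27: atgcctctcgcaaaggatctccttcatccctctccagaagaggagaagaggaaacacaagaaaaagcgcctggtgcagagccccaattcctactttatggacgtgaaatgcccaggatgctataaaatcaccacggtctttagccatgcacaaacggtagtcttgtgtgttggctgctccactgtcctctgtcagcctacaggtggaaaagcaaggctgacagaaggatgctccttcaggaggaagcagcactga
Rps27l: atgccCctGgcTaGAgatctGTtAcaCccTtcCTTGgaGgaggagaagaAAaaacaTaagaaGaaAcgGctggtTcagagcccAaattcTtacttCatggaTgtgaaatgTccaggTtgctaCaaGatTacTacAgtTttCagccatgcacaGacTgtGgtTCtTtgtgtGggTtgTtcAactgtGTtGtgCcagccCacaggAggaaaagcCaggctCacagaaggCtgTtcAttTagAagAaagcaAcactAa
Rps27rt (chr9:114982453-114982707, minus strand) has the same 255 letters as Rps27, with 0 mismatches, and all 206 words of 50 bases in the coding sequence occur in both. Rps27l differs from Rps27 at 61 of 255 positions (76.1% identity) and shares 0 of its 206 coding words with them. Rps27 had a mean of 80.1 counts per sample and Rps27rt of 4.5, against 1520 for Rps27l. Rps27rt had 1 to 12 counts in every sample. Reads inside the coding sequence cannot be assigned to Rps27 or Rps27rt by sequence, so values of either are uncertain.

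The 7 paralogues replace or resemble a canonical protein, some of them in particular tissues. Of these, 4 were expressed at a testable level. Rpl7l1, an assembly factor related to Rpl7, stood at 161.1 CPM ± 0.890 (SD, n = 3) in WT in normoxia, Rps27l at 65.8 CPM ± 4.71 (SD, n = 3), Rpl36al at 39.3 CPM ± 1.60 (SD, n = 3) and Rpl22l1 at 37.2 CPM ± 8.58 (SD, n = 3). Rpl3l, the muscle paralogue of Rpl3, had 0 to 6 counts per sample. Rpl10l, the testis paralogue of Rpl10, had 1 count in 1 WT normoxia sample and 0 in the other 11. Rpl39l had 0 counts in all 12 samples, which allows a level of up to 0.0961 to 0.143 CPM per sample (3 counts of the total, covering counting error only).

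**Figure D2:**
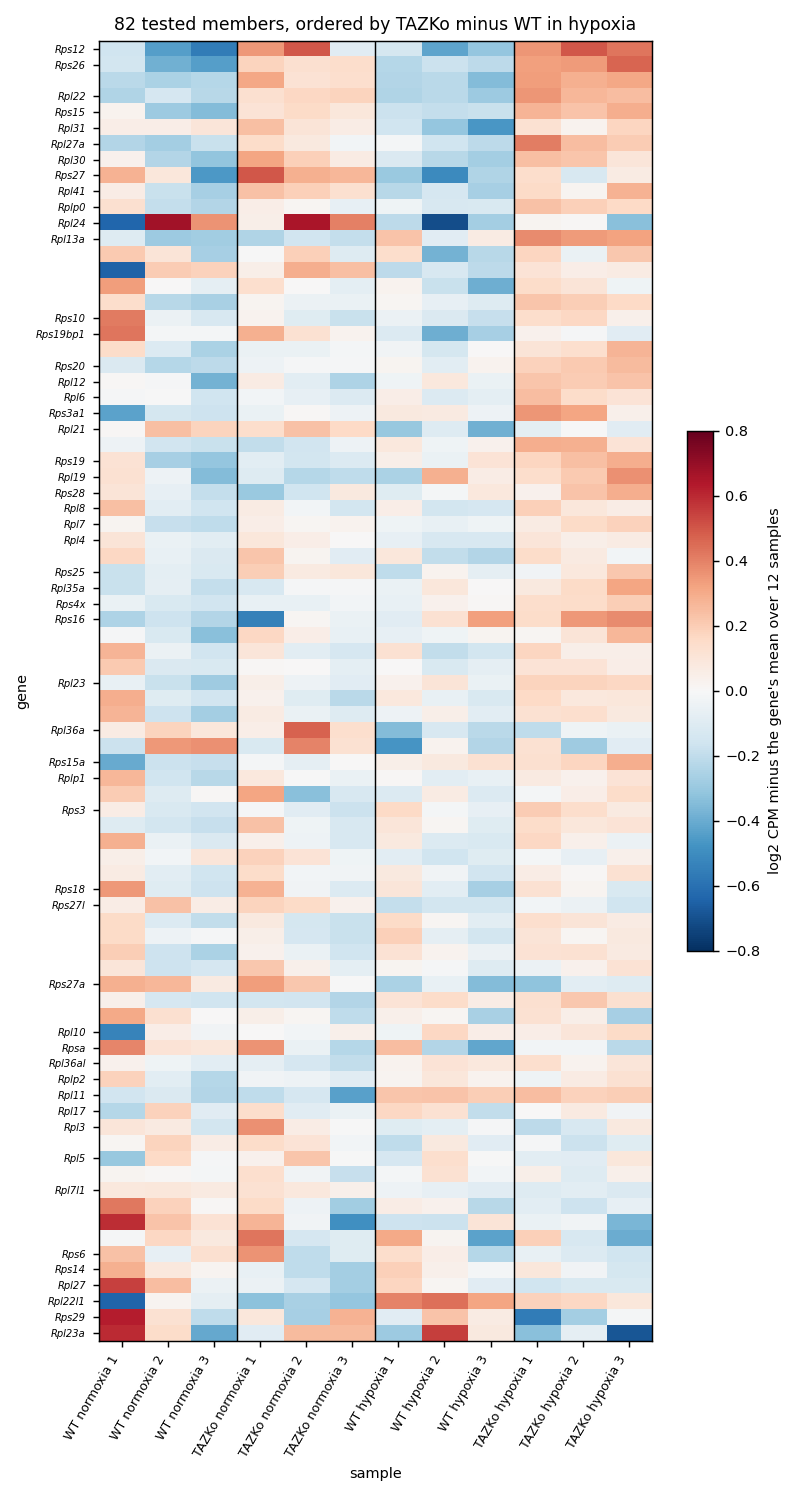
Level of the 82 tested genes (rows) in the 12 samples (columns) as log2 CPM minus the gene's mean over all samples, with the rows ordered by the difference between TAZKo and WT in hypoxia. The TAZKo hypoxia columns are red over most rows, of which those of genes named in the text carry their symbol, whereas WT normoxia sample 1 differs from the other WT normoxia samples in many rows.

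In both normoxia groups most of these genes were highest in sample 1. WT normoxia sample 1 was the highest of its group for 58 of the 82 genes. The median of their log2 deviations from each gene's own mean was 0.06 there against -0.07 and -0.16 in samples 2 and 3. For all genes the same median was -0.04 in sample 1 and 0.01 in each of the others. Replicate 1 was also the highest for 57 genes in the TAZKo normoxia group, for 43 in the WT group under hypoxia and for 40 in the TAZKo group under hypoxia. In the TAZKo normoxia group the median deviation of the 82 genes was 0.065 in sample 1 and -0.021 and -0.057 in samples 2 and 3. Rpl22l1 and Rps15a went the other way, with WT normoxia sample 1 the lowest of its group. Counts over the 82 genes are given with and without this library. Several single-gene results are given only with it, among them Rps14 in normoxia and the WT hypoxia response of Rps15a, Rps19bp1 and Rpl22l1. Leaving out WT normoxia sample 1 alone keeps TAZKo normoxia sample 1 in the comparison.

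TAZKo was first compared with WT in normoxia. Of the 82 genes, 11 were higher in TAZKo and 2 were lower (edgeR's quasi-likelihood test, Benjamini-Hochberg adjusted p under 0.05 over 14408 genes). Over all genes tested, 15.6% were called higher, 14.9% lower and 30.4% in either direction. The median log2 difference of the 82 genes was 0.02, against 0.01 over all genes. Blocking on the replicate number gave 11 higher and 4 lower. Without WT normoxia sample 1 they were 20 higher and 2 lower, with a median of 0.09, against -0.001 over all genes. Here and below, counts from alternative fits (a changed setting or a sample left out) stand without the share of all genes called there. Calls over all genes can change in such fits too, so these counts are not read as particular to the ribosomal genes. In 12 genes every TAZKo sample lay above every WT sample and in 2 every one lay below, against 22.0% and 20.9% of all genes. Leaving out WT normoxia sample 3, TAZKo normoxia sample 1 or TAZKo normoxia sample 2 instead left 5 higher, and leaving out WT normoxia sample 2 left 6. The genes called lower were 4 without WT normoxia sample 3 or TAZKo normoxia sample 1, and 1 without TAZKo normoxia sample 3.

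The genes higher in normoxia included Rpl22, Rpl27a, Rpl30 and Rpl41 of the large subunit and Rps12, Rps15, Rps15a, Rps20, Rps25 and Rps26 of the small subunit. Rps26, which lies at the mRNA exit channel, measured 160.3, 136.3 and 130.8 CPM in WT and 201.5, 194.7 and 196.2 CPM in TAZKo. Every TAZKo sample was above every WT sample, and the log2 difference was 0.47 ± 0.0723 (SE, adjusted p = 0.000252, edgeR). Rpl22, a protein at the surface of the large subunit, measured 215.3, 232.1 and 217.8 CPM in WT and 278.2, 286.1 and 287.8 CPM in TAZKo. It too was higher in all 3 TAZKo samples, by 0.36 ± 0.0539 on the log2 scale (SE, adjusted p = 0.00022, edgeR).

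The calls for Rpl30 and Rps15 in normoxia were lost on leaving out any of 3 samples, while the direction was kept. Rpl30, which binds the ribosomal RNA of the large subunit, measured 111.0, 92.1 and 87.1 CPM in WT and 135.1, 123.9 and 113.2 CPM in TAZKo. The groups did not overlap and the log2 difference was 0.36 ± 0.0917 (SE, adjusted p = 0.00906, edgeR), but the difference was 0.25 to 0.29 with an adjusted p of 0.0517 to 0.0653 without WT normoxia sample 2, WT normoxia sample 3 or TAZKo normoxia sample 1. Rps15 measured 314.1, 251.6 and 242.5 CPM in WT and 331.9, 343.0 and 328.2 CPM in TAZKo. Its difference of 0.31 ± 0.0797 (SE, adjusted p = 0.00911, edgeR) was 0.21 to 0.26 with an adjusted p of 0.063 to 0.071 without WT normoxia sample 2, WT normoxia sample 3 or TAZKo normoxia sample 2. In both genes WT normoxia sample 1 was the highest WT sample, and both were called again in hypoxia, at 0.39 for Rpl30 and 0.45 for Rps15.

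Rpl27 and Rps14 were lower in TAZKo in normoxia. Rpl27 measured 26.7, 21.7 and 17.7 CPM in WT and 17.7, 16.6 and 15.2 CPM in TAZKo, so that the lowest WT and the highest TAZKo sample nearly met. Its log2 difference was -0.42 ± 0.125 (SE, adjusted p = 0.0211, edgeR), and the call ended without WT normoxia sample 1 (adjusted p = 0.0619) or TAZKo normoxia sample 3 (adjusted p = 0.0672). Rps14, a small subunit protein whose loss causes an anaemia in humans, measured 355.2, 309.0 and 294.9 CPM in WT and 279.7, 252.4 and 241.2 CPM in TAZKo. Its log2 difference was -0.31 ± 0.0875 (SE, adjusted p = 0.0156, edgeR). In hypoxia neither gene passed the test.

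The same genotypes were then compared in hypoxia. There 18 of the 82 genes were higher in TAZKo and 0 were lower at an adjusted p under 0.05 by edgeR. An unadjusted p under 0.05 was reached by 24 of the 82, against 6049 of all 14408 genes. By DESeq2's test 16 were higher and 0 lower. Over all genes tested, 15.8% were called higher and 16.9% lower. The median log2 difference of the 82 genes was 0.14, against -0.01 over all genes. A positive difference was found in 66 of the 82 and in 7058 of all 14408 genes. In 33 genes every TAZKo sample lay above every WT sample, a pattern that 24.2% of all genes showed, and in 2 genes every TAZKo sample lay below, against 25.8% of all. The 82 genes had a median 0.13 to 0.17 above that of all genes in each of 23 settings, which changed the scaling, filter, tool, block or lane or left out a sample.

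The 18 genes comprised 10 of the large subunit (among them Rpl4, Rpl6, Rpl7, Rpl13a, Rpl22, Rpl27a, Rpl30, Rpl31 and Rpl41), 7 of the small subunit (among them Rps4x, Rps12, Rps15, Rps20 and Rps26) and Rplp0. Of the 41 genes sharing under 50% of their words, 10 were higher, and of the 41 sharing more, 8. Without WT normoxia sample 1, whose absence changed the scaling and the estimate of the spread, the calls were 30 higher and 1 lower. They were 11 higher without TAZKo hypoxia sample 1 or without WT hypoxia sample 3, and 12 without TAZKo hypoxia sample 2 or WT hypoxia sample 2.

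Rps26 measured 151.9, 157.8 and 153.5 CPM in WT and 223.3, 224.7 and 245.3 CPM in TAZKo in hypoxia. The log2 difference was 0.58 ± 0.0723 (SE, adjusted p = 4.02e-05, edgeR), with no overlap. Rpl22 measured 215.8, 219.5 and 207.7 CPM in WT and 325.8, 306.0 and 302.3 CPM in TAZKo. The difference of 0.54 ± 0.054 (SE, adjusted p = 6.28e-06, edgeR) had a smaller adjusted p than that of Rps26, and the groups did not overlap.

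Rps15 measured 273.1, 269.4 and 271.7 CPM in WT and 372.2, 360.6 and 376.5 CPM in TAZKo in hypoxia. The samples of each group lay close together and the log2 difference was 0.45 ± 0.0798 (SE, adjusted p = 0.000781, edgeR). Rpl31, near the exit of the peptide tunnel, measured 10.7, 9.60 and 8.62 CPM in WT and 12.9, 12.1 and 13.4 CPM in TAZKo. It was 0.42 ± 0.0914 higher (SE, adjusted p = 0.00321, edgeR), whereas in normoxia the difference was 0.07 with overlapping groups. The WT hypoxia samples of Rpl31 were low against the other 3 groups, which stood between 12.1 and 14.1 CPM.

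**Figure D3:**
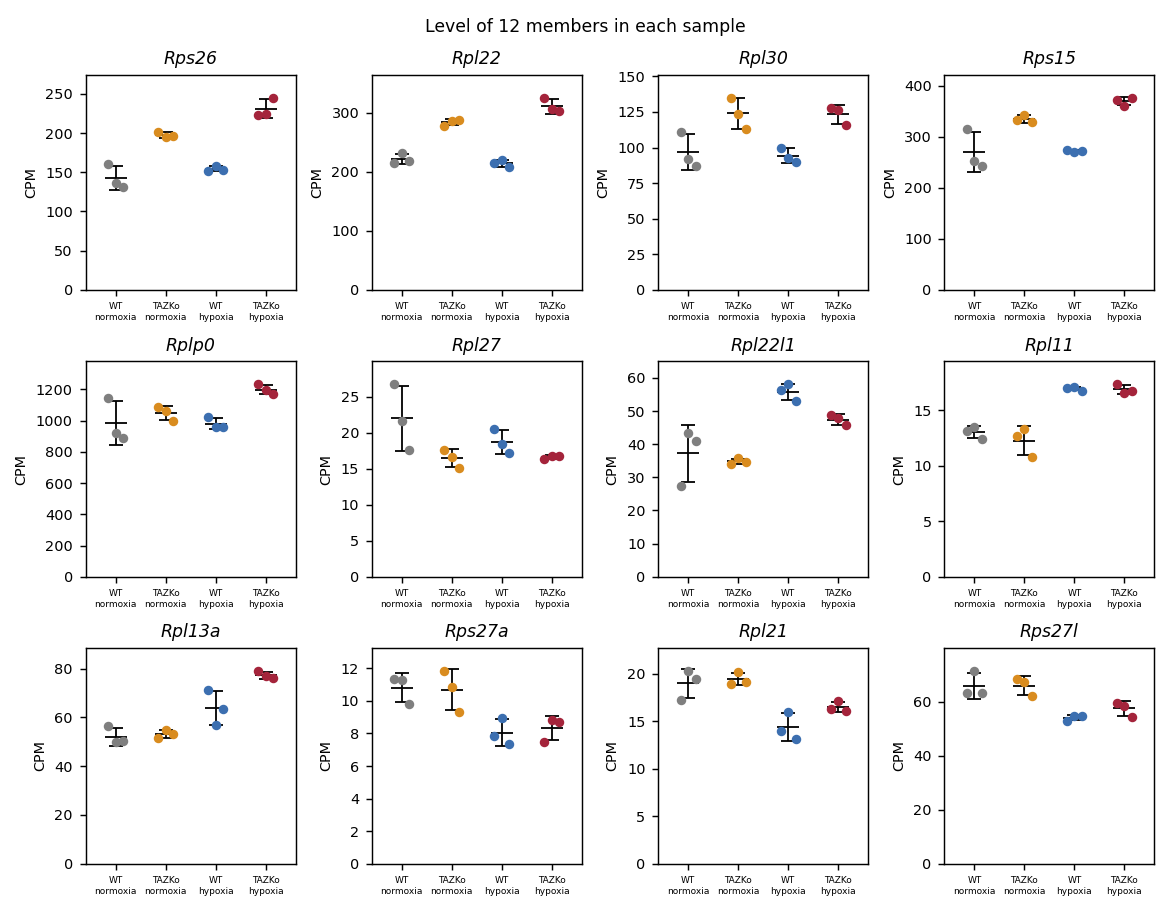
CPM (y axis, from 0) of 12 ribosomal protein genes in each of the 3 samples of the 4 groups (points), with the mean (bar) and SD (whiskers). Rps26, Rpl22, Rpl30 and Rps15 are higher in both TAZKo groups, Rpl22l1 and Rpl11 are higher in both hypoxia groups, and Rps27a, Rpl21 and Rps27l are lower in them.

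Among the stalk proteins, Rplp0 was called between genotypes in hypoxia, while Rplp1 and Rplp2 were not. It measured 1148, 919.7 and 890.9 CPM in WT and 1086, 1061 and 1001 CPM in TAZKo in normoxia, where WT sample 1 was above all others. In hypoxia it measured 1025, 958.3 and 961.9 CPM in WT and 1232, 1198 and 1169 CPM in TAZKo, with no overlap. The log2 difference was 0.09 ± 0.0819 (SE, adjusted p = 0.45, edgeR) in normoxia and 0.29 ± 0.082 (SE, adjusted p = 0.0151, edgeR) in hypoxia. The latter had an adjusted p of 0.0548 to 0.0591 without WT hypoxia sample 2, WT hypoxia sample 3 or TAZKo hypoxia sample 1. In normoxia, leaving out WT sample 1 gave Rplp0 a difference of 0.21 (adjusted p = 0.00582) and Rplp1 one of 0.20 (adjusted p = 0.00867). Rplp1 differed by 0.12 and Rplp2 by 0.01 in hypoxia, with adjusted p of 0.42 and 0.957 by edgeR. Rps6 (-0.10, 95% interval -0.41 to 0.22) and Rpsa (0.04, from -0.32 to 0.39) were not called either. Their mean counts were 88.6 per sample for Rps6 and 168 for Rpsa.

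Both genotype comparisons called 9 genes higher in common, which is 81.8% of the 11 and 50% of the 18, among them Rpl22, Rpl27a, Rpl30, Rpl41, Rps12, Rps15, Rps20 and Rps26. The normoxia and hypoxia comparisons share no sample. The overlap over all genes was not counted, so this one is not read as particular to the ribosomal genes. Rps12, named after its values were seen because its level is below the 10 CPM asked of named genes, measured 3.15 to 4.16 CPM in WT and 4.36 to 6.54 CPM in TAZKo in normoxia. In hypoxia it measured 3.46 to 4.20 CPM in WT and 5.93 to 6.54 CPM in TAZKo, and its log2 differences were 0.64 ± 0.157 and 0.72 ± 0.155 (SE, adjusted p = 0.00738 and 0.00293, edgeR). With 83.5% of its words found in 25 other genes, the Rps12 value is uncertain.

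**Figure D4:**
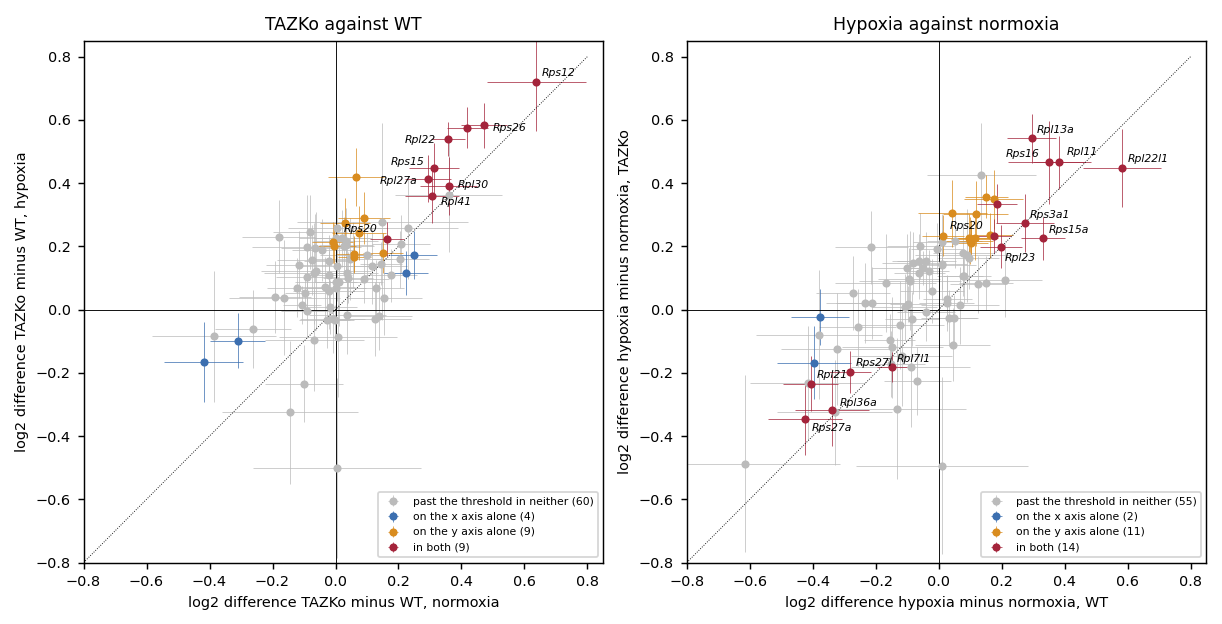
Log2 differences of the 82 genes, with SE bars: left, TAZKo minus WT in normoxia (x axis) and in hypoxia (y axis); right, hypoxia minus normoxia in WT (x axis) and in TAZKo (y axis), where the dotted line marks equal values. On the left 9 genes passed the test in both and all lie at the upper right; on the right 14 did, 9 up and 5 down.

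Over all genes, the genotype difference varied with the chromosome, and the ribosomal protein genes followed it in part. The 4 genes on chromosome 10 (Rpl41, Rps12, Rps15 and Rps26) were all called higher in TAZKo in both conditions. Over all 676 genes tested on chromosome 10 the median log2 difference was 0.31 in normoxia and 0.29 in hypoxia, above that of any other chromosome in both, and 378 and 319 of them were called higher. The medians of the 4 genes were 0.39 and 0.51. On chromosome 4, which carries Rpl11, Rpl22, Rps6 and Rps20 among others, the median over all 916 genes was 0.13 in both conditions. Rpl22 (0.36 and 0.54) and Rps20 (0.16 and 0.22) lay above it, while Rpl11 (-0.09 and -0.01) and Rps6 (-0.07 and -0.10) lay below. Rps14 and Rpl17 lie on chromosome 18, where the median over all genes was -0.22 in normoxia and -0.28 in hypoxia. Rps14 differed by -0.31 and -0.10, whereas Rpl17, at 0.04 and -0.02, did not follow the chromosome.

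Off chromosome 10, 7 of 78 ribosomal protein genes were higher and 2 lower in normoxia, where 13.6% and 15.4% of all genes on the other chromosomes were called. In hypoxia 14 of the 78 were higher and 0 lower, against 14.3% and 17.5%, with a median of 0.14. Whether copy number differs between the cells was not tested.

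**Figure D5:**
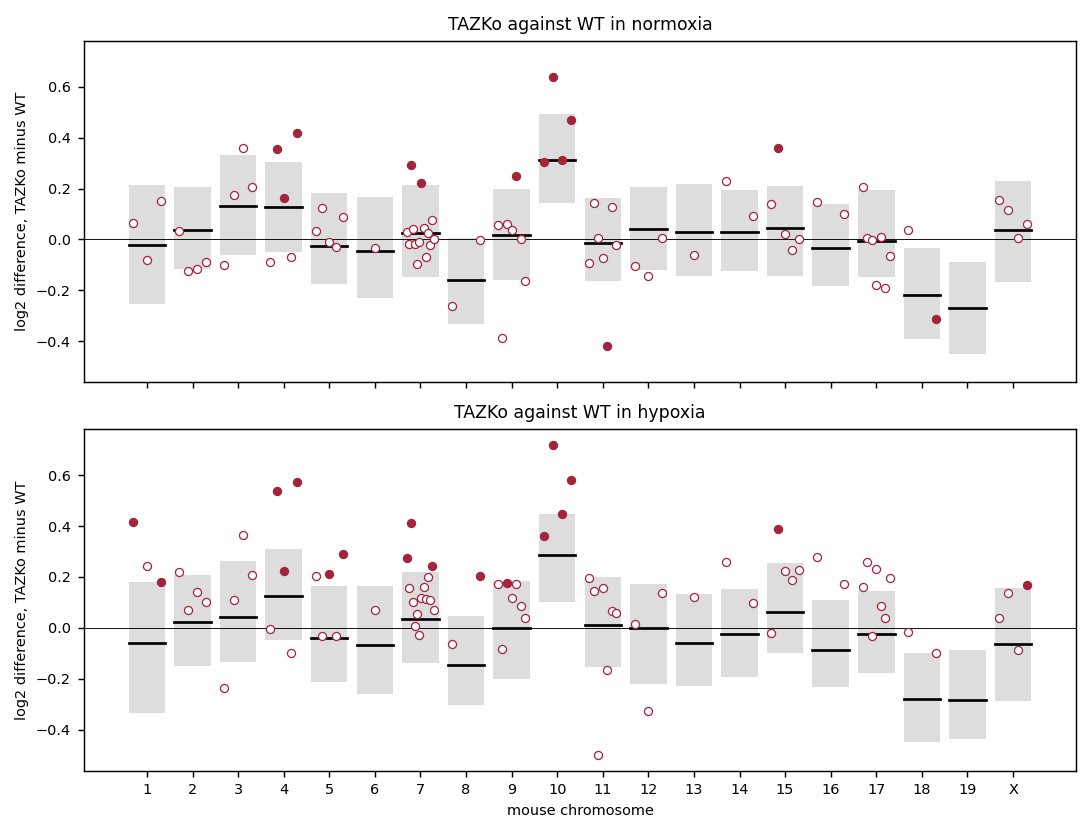
Log2 difference between TAZKo and WT (y axis) in normoxia (top) and hypoxia (bottom) by chromosome (x axis): circles are the 82 ribosomal protein genes, filled where they passed the test, black bars the median and grey boxes the span between the lower and upper quartile of all genes tested on the chromosome. The 4 circles on chromosome 10 are filled in both panels and lie around an all-gene median of 0.31 and 0.29.

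RefSeq start regions on GRCm38.p6 were matched for 66 of the 86 genes, among them 6 of the 9 that were higher in both conditions (Rpl22, Rpl27a, Rpl41, Rps12, Rps15 and Rps26). The 60 bases around the start are shown for 4 of them, to let runs of C and T near it be compared. They reach from 30 bases before to 30 after, on the strand of the gene. Capitals mark the longest unbroken run of C and T, on either side of the start. In Rps15 this run lies before the annotated start, so it is not a tract that opens the transcript.
Rps26 (chr10:128626477-128626536, minus strand): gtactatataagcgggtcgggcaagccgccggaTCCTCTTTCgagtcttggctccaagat
Rps12 (chr10:23787180-23787239, minus strand): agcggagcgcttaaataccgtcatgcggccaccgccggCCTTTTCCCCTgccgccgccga
Rpl27a (chr7:109519165-109519224, plus strand): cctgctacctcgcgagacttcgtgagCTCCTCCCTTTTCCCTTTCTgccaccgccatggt
Rps15 (chr10:80292401-80292460, plus strand): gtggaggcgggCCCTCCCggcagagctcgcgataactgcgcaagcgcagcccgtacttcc
The longest run was 20 bases in Rpl27a, 11 in Rps12 and 9 in Rps26, but 7 in Rps15, 5 in Rpl22 and 4 in Rpl41. A run of at least 8 was present in 48.5% of the 66 windows, against 22.8% of the windows of all 27025 genes in the table. CTTTCC, which is itself made of C and T, occurred on the strand of the gene in 16.7% of the 66 and in 2.85% of all, and on the opposite strand in 3.03% and 2.54%. CCGGAAG, on either strand of the 300 bases that each entry holds, occurred in 37.9% of the 66 and 9.12% of all. The 6 genes with a difference between genotypes thus did not all hold a long run in the window. A run's length does not show whether a TOP tract is present, and these matches describe letters, not binding.

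The response to 24 hours of hypoxia was small for most of these genes. In WT cells 9 of the 82 were higher and 7 lower in hypoxia by edgeR, where 26.0% and 25.0% of all genes were called. The median log2 difference was -0.01, against 0.01 over all genes. The split depended on the scaling: it was 4 higher and 12 lower with upper quartile scaling or with TMM computed without these genes, and 3 higher and 16 lower with library size alone, which also moved the median of all genes by -0.11. Relative to all genes, the median of the 82 was -0.02 under TMM and -0.03 under upper quartile scaling and library size alone. In 12 genes every hypoxia sample lay above every normoxia sample and in 9 every one lay below, against 28.1% and 26.5% of all genes. With the replicate block the calls were 10 higher and 12 lower. Without WT normoxia sample 1 they were 18 higher and 10 lower, and with any other single sample left out 3 to 5 higher and 7 to 14 lower.

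In TAZKo cells 20 of the 82 were higher and 5 lower in hypoxia by edgeR, where 22.2% and 21.6% of all genes were called. The median log2 difference was 0.09, against -0.01 over all genes. In 32 genes every hypoxia sample lay above every normoxia sample and in 7 every one lay below, against 30.3% and 30.9% of all genes. With library size alone, which moved the median of all genes by -0.09, 7 were higher and 6 lower. Relative to all genes the median of the 82 was 0.10 in both cases. Without WT normoxia sample 1, which is no sample of this comparison but enters the scaling and the shared spread, 30 were higher and 5 lower. With any other single sample left out, 9 to 18 were higher. The genes called lower were 1 without TAZKo normoxia sample 2, 2 without TAZKo hypoxia sample 1 and 3 without TAZKo normoxia sample 1 or TAZKo hypoxia sample 3.

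The responses in WT and TAZKo share no sample. They called 9 genes higher in common, 100% of the 9 in WT and 45% of the 20 in TAZKo, among them Rpl11, Rpl13a, Rpl22l1, Rpl23, Rps3a1, Rps15a, Rps16 and Rps20. They called 5 lower in common: Rpl21, Rpl36a, Rpl7l1, Rps27a and Rps27l. The overlap over all genes was not counted here either, so these shares are not read as particular to the ribosomal genes. The genes higher in TAZKo alone included Rpl6, Rpl12, Rpl27a, Rpl35a, Rpl36al, Rps3, Rps4x, Rps19, Rps26 and Rps28, and the genes lower in WT alone were Rpl31 and Rps19bp1. That a gene passed in 1 genotype does not show that the genotypes differ, which the test of the difference below addresses.

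Rpl22l1, which can take the place of Rpl22, had the largest increase among the genes called in WT. It measured 27.5, 43.5 and 40.8 CPM in normoxia and 56.3, 58.0 and 53.2 CPM in hypoxia in WT, with no overlap and with normoxia sample 1 low. The log2 difference was 0.58 ± 0.123 (SE, adjusted p = 0.00135, edgeR). In TAZKo it measured 34.0, 35.8 and 34.5 CPM in normoxia and 48.7, 47.9 and 45.6 CPM in hypoxia, a difference of 0.45 ± 0.123 (SE, adjusted p = 0.00948, edgeR). Between genotypes, Rpl22l1 in TAZKo lay below WT in every hypoxia sample while Rpl22 lay above. The Rpl22l1 difference did not pass the test (-0.235, 95% interval -0.47 to 0.0, edgeR adjusted p = 0.163). Without WT normoxia sample 1 it did, at -0.24 (adjusted p = 0.00255), and so did that in normoxia, at -0.28 (adjusted p = 0.00274). With the samples of the comparison alone the hypoxia difference passed too (adjusted p = 0.0111).

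Rpl11, which binds Mdm2 when ribosome assembly fails, measured 13.1, 13.5 and 12.4 CPM in normoxia and 17.0, 17.1 and 16.7 CPM in hypoxia in WT. In TAZKo it measured 12.7, 13.3 and 10.8 CPM in normoxia and 17.3, 16.6 and 16.7 CPM in hypoxia. Hypoxia samples were above normoxia samples in both genotypes, by 0.38 ± 0.0831 and 0.47 ± 0.0826 (SE, adjusted p = 0.00166 and 0.000487, edgeR). Rpl5, its partner in binding Mdm2, differed by 0.04 in WT and -0.11 in TAZKo, not past the test, with 93.8% of its words shared. Rpl5 is named here after its values were seen.

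Rpl13a, known for its role outside the ribosome in silencing inflammatory mRNAs, measured 56.4, 49.7 and 50.1 CPM in normoxia and 71.1, 57.0 and 63.6 CPM in hypoxia in WT. In TAZKo it measured 51.4, 54.7 and 53.2 CPM in normoxia and 78.9, 77 and 76 CPM in hypoxia. The log2 differences were 0.29 ± 0.0789 and 0.54 ± 0.0784 (SE, adjusted p = 0.00662 and 9.37e-05, edgeR). The call in WT ended without WT normoxia sample 2, WT normoxia sample 3 or WT hypoxia sample 1 (adjusted p = 0.0674 to 0.0878) and with library size alone (adjusted p = 0.0618).

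Rps16 rose by 0.35 ± 0.132 in WT and 0.47 ± 0.131 in TAZKo (SE, adjusted p = 0.0398 and 0.0107, edgeR). The WT call was lost on leaving out 1 of 10 of the 12 samples, with adjusted p up to 0.331 without WT hypoxia sample 3, and under 5 other settings. In TAZKo it was lost without normoxia sample 1, hypoxia sample 2 or hypoxia sample 3 (adjusted p = 0.0584 to 0.0643). Rps15a rose by 0.33 ± 0.0692 in WT and 0.23 ± 0.0688 in TAZKo (SE, adjusted p = 0.00123 and 0.017, edgeR).

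Rps27a, which is made as a fusion to ubiquitin, fell in both genotypes. It measured 11.4, 11.3 and 9.82 CPM in normoxia and 7.85, 8.97 and 7.35 CPM in hypoxia in WT, a log2 difference of -0.42 ± 0.117 (SE, adjusted p = 0.00775, edgeR). In TAZKo it measured 11.8, 10.9 and 9.33 CPM in normoxia and 7.49, 8.82 and 8.71 CPM in hypoxia, a difference of -0.34 ± 0.115 (SE, adjusted p = 0.0254, edgeR). The TAZKo call ended without normoxia sample 1, normoxia sample 2 or hypoxia sample 1 (adjusted p = 0.0505 to 0.0738).

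Rpl21 measured 17.3, 20.3 and 19.5 CPM in normoxia and 14.0, 16 and 13.1 CPM in hypoxia in WT, and fell by 0.41 ± 0.0878 on the log2 scale (SE, adjusted p = 0.00162, edgeR). In TAZKo it fell by 0.23 ± 0.086 (SE, adjusted p = 0.0404, edgeR), a call that ended without normoxia sample 2 or 3 or hypoxia sample 1 or 3 (adjusted p = 0.0518 to 0.0848). Rpl31 fell in WT by 0.38 ± 0.0919 (SE, adjusted p = 0.00356, edgeR) and differed by -0.03 in TAZKo. Rps19bp1 fell in WT from 58.7, 43.3 and 43.2 to 40.6, 33.4 and 36.4 CPM, a log2 difference of -0.40 ± 0.116 (SE, adjusted p = 0.0116, edgeR), and differed by -0.17 in TAZKo (adjusted p = 0.262).

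The paralogues did not move together. Rps27l, a target of p53, fell from 63.0, 71.2 and 63.1 to 53.0, 54.8 and 54.6 CPM in WT, by 0.28 ± 0.0676 (SE, adjusted p = 0.00326, edgeR). In TAZKo it fell by 0.20 ± 0.0672 (SE, adjusted p = 0.0289, edgeR), and that call ended without normoxia sample 1 or 2 or hypoxia sample 3 (adjusted p = 0.0526 to 0.0697). Rpl7l1 fell by 0.15 ± 0.0482 in WT and 0.18 ± 0.0482 in TAZKo (SE, adjusted p = 0.0192 and 0.00742, edgeR). Rpl36al rose in TAZKo by 0.22 ± 0.0612 (SE, adjusted p = 0.00966, edgeR), but not with library size alone (0.13, adjusted p = 0.135) or with no filter (adjusted p = 0.112), nor without normoxia sample 2 or 3 or hypoxia sample 1 or 3 (adjusted p = 0.0519 to 0.0912). Between genotypes 0 of the 4 were called in either condition with all samples included, and Rpl22l1 was called without WT normoxia sample 1, as given above.

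The stalk proteins, Rps6 and Rpsa were not called in either hypoxia comparison. Rplp0 differed by -0.01 in WT and 0.19 in TAZKo (adjusted p = 0.956 and 0.0721), and the latter passed with the replicate block (adjusted p = 0.019) and with the lane as a covariate (adjusted p = 0.022). Rpsa, the laminin receptor precursor, differed by -0.32 in WT (adjusted p = 0.151), and with the replicate block the adjusted p was 0.0243. Without WT hypoxia sample 1 the Rpsa difference was -0.58 (adjusted p = 0.0127). Without WT normoxia sample 1, Rplp0 rose in TAZKo (adjusted p = 0.00305), and in WT Rplp2 rose by 0.20 (adjusted p = 0.0115) and Rplp1, at -0.02 with all samples, by 0.15 (adjusted p = 0.0333). Rps6 differed by -0.12 in WT and -0.15 in TAZKo.

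The difference between the responses of TAZKo and WT was tested directly. For 0 of the 82 genes did it pass an adjusted p under 0.05 by edgeR or by DESeq2, where 2.43% of all genes passed by edgeR (0.722% higher and 1.71% lower). At an unadjusted p under 0.05 by edgeR there were 5 of the 82, against 2273 of all 14408 genes. The 5, named here after their values were seen, were Rpl31 (0.35 ± 0.128), Rps10 (0.41 ± 0.163), Rpl22 (0.18 ± 0.0761), Rpl6 (0.22 ± 0.0929) and Rpl13a (0.25 ± 0.111), each with its SE and adjusted p of 0.185 to 0.303. The median over the 82 was 0.12, against -0.02 over all genes, and 64 of the 82 were positive, as were 6821 of all 14408 genes. Relative to all genes this median was 0.07 to 0.18 in 22 settings, and lowest (0.07) without WT normoxia sample 1. With no filter 1 gene passed.

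The deposited files carry a lane number for each library, and each group had samples on both lanes. The lanes were not balanced: each normoxia group had 2 samples on lane 4 and 1 on lane 5, and each hypoxia group 1 and 2. Within lane 4 the median difference of the 82 genes between TAZKo and WT was 0.01 in normoxia and 0.11 in hypoxia, and within lane 5 it was 0.06 and 0.15. The hypoxia response had medians of -0.02 in WT and 0.07 in TAZKo within lane 4, and 0.07 and 0.17 within lane 5. Over all genes the medians within a lane ran from -0.013 to 0.027. Each median rests on 1 or 2 samples a group.

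Genes related to the ribosome were counted in the same fits. The counts below stand against the shares of all genes called higher and lower in TAZKo, 15.6% and 14.9% in normoxia and 15.8% and 16.9% in hypoxia. In response to hypoxia these shares were 26.0% and 25.0% in WT and 22.2% and 21.6% in TAZKo. No test compared the lists with other genes, and several of the counts lie near these shares. Fau and Rack1, components that the symbol pattern does not match, rose in TAZKo in hypoxia. Fau, which encodes the ubiquitin-like fusion of a small subunit protein, rose by 0.55 in WT and 0.66 in TAZKo (edgeR adjusted p = 6.94e-05 and 2.2e-05). Rack1, a scaffold on the small subunit, rose by 0.25 in TAZKo (edgeR adjusted p = 0.0151) but not with library size alone (adjusted p = 0.112), nor without TAZKo normoxia sample 2 or 3 or TAZKo hypoxia sample 1 or 2 (adjusted p = 0.0621 to 0.0998). Neither Fau nor Rack1 was called between genotypes.

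Of 14 other genes with TOP mRNAs, which encode translation factors and their partners, 3 were higher and 1 lower in TAZKo in normoxia and 6 higher and 0 lower in hypoxia, with medians of 0.07 and 0.19. Eef2, elongation factor 2, was higher by 0.32 and 0.59 (edgeR adjusted p = 0.00253 and 1.83e-05). Nap1l1, a histone chaperone, was higher by 0.50 and 0.43 (edgeR adjusted p = 0.00744 and 0.016). The call for Nap1l1 ended in normoxia without TAZKo sample 2 (adjusted p = 0.0574) and in hypoxia without WT sample 1 or 3 or TAZKo sample 1 or 2 (adjusted p = 0.0509 to 0.0733). Eef2 and Nap1l1 both lie on chromosome 10. In response to hypoxia 5 of the 14 were higher in each genotype, with 2 lower in WT and 0 in TAZKo. Eif4b rose by 0.32 and 0.53 (edgeR adjusted p = 0.000116 and 1.67e-06), and in WT Eef1g fell by 0.37 and Eef1d by 0.345 (edgeR adjusted p = 0.000341 and 0.00287).

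Genes of the machinery that makes ribosomes were called in both directions in hypoxia. Of 57 tested genes for processing and assembly of pre-ribosomes, 10 were higher and 22 lower in WT, and 9 higher and 14 lower in TAZKo, with medians of -0.10 and -0.05. Rrp9 fell by 0.93 and 0.50 (edgeR adjusted p = 1.66e-05 and 0.00322) and Pelp1 by 0.79 and 0.52 (edgeR adjusted p = 7.2e-06 and 0.000391). Gnl3, nucleostemin, rose by 0.56 and 0.44 (edgeR adjusted p = 7.36e-05 and 0.000714). Of 20 genes for RNA polymerase I and its factors, 1 was higher and 6 lower in WT and 4 higher and 6 lower in TAZKo, and Polr1b fell by 0.42 and 0.32 (edgeR adjusted p = 0.000201 and 0.00206). Of 7 chaperones of ribosomal proteins, 3 were lower in WT and 1 in TAZKo, with 0 higher in either. Bccip fell by 0.64 and 0.42 (edgeR adjusted p = 4.31e-06 and 0.000231).

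Between genotypes, the assembly list had 4 higher and 11 lower in TAZKo in normoxia and 5 higher and 8 lower in hypoxia. Nolc1, on chromosome 19, was lower by 0.58 and 0.46 (edgeR adjusted p = 5.47e-05 and 0.000371), and Utp20, on chromosome 10, was higher by 0.31 in both (edgeR adjusted p = 0.00255 and 0.00288). The polymerase I list had 1 higher and 0 lower in normoxia and 1 higher and 1 lower in hypoxia. The chaperone list had 1 higher and 3 lower in normoxia and 1 higher and 0 lower in hypoxia.

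Of 7 tested hosts of small nucleolar RNAs, transcripts whose introns hold RNAs that guide ribosomal RNA modification, 5 were higher in hypoxia in WT and 6 in TAZKo, with 0 lower. Snhg12 rose by 1.49 and 1.21 (edgeR adjusted p = 1.92e-08 and 1.95e-07) and Zfas1 by 1.03 and 1.15 (edgeR adjusted p = 3.61e-07 and 1.8e-07). Between genotypes, 3 were higher and 0 lower in TAZKo in normoxia and 2 higher and 1 lower in hypoxia.

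Of 24 genes of mTORC1, TOP mRNA binding and MYC control, 12 were higher and 4 lower in hypoxia in WT and 11 higher and 3 lower in TAZKo. Ddit4, an inhibitor of mTORC1 signalling, rose by 2.35 and 1.86 (edgeR adjusted p = 1.27e-09 and 1.57e-08) and Mxi1, a MYC antagonist, by 2.02 and 1.87 (edgeR adjusted p = 6.59e-10 and 2.14e-09). Between genotypes, 4 were higher and 3 lower in normoxia and 4 higher and 5 lower in hypoxia. Deptor, an mTOR-binding inhibitor, was higher in TAZKo by 2.30 and 1.25 (edgeR adjusted p = 8.46e-09 and 1.33e-06), and Mycn was lower by 1.26 and 0.70 (edgeR adjusted p = 2.09e-07 and 2.96e-05). Of 14 genes for rescue, hibernation and stress sensing of ribosomes, 5 were higher and 4 lower in hypoxia in WT and 5 higher and 2 lower in TAZKo. Mdm2 rose by 1.49 and 0.96 (edgeR adjusted p = 1.71e-07 and 1.42e-05).

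The proteins of the mitochondrial ribosome are encoded by a separate set of nuclear genes. Of 77 tested, 2 were higher and 51 lower in WT, and 4 higher and 41 lower in TAZKo, with medians of -0.29 and -0.23, where 26.0% and 25.0% of all genes were called higher and lower in WT and 22.2% and 21.6% in TAZKo. The cytosolic set in the same comparisons had 9 higher and 7 lower, and 20 higher and 5 lower, with medians of -0.01 and 0.09. Between genotypes, the mitochondrial genes had 3 higher and 14 lower in normoxia and 5 higher and 10 lower in hypoxia, with medians of -0.09 and -0.02. Mrpl42 fell by 0.68 in WT and 0.70 in TAZKo (adjusted p = 1.44e-06 and 1.42e-06, edgeR), while Mrpl45 rose by 0.49 and 0.46 (adjusted p = 9.16e-05 and 0.000222, edgeR). These counts are given side by side, and no test compared the lists.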

How the data were processed

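RNA from 12 samples of mouse embryonic fibroblasts was sequenced from TruSeq v2 libraries, a kit that does not mark strand, per the labels' protocols. The authors deposited raw gene counts per sample, and the build is mm10, per the submitters' processing notes. The aligner, counter, annotation and handling of reads with several matches are not given in the sources used here. Totals ranged from 21039451 to 31204510 counts.

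Samples were grouped by their labels. The counts were fitted in edgeR 4.0.16 (R 4.3.3, limma 3.58.1) with TMM scaling, filterByExpr and 1 coefficient for each of the 4 groups over all 12 samples. The quasi-likelihood test was used with Benjamini-Hochberg adjustment over 14408 genes and a threshold of 0.05, at a biological coefficient of variation of 8.62%. SE is the absolute log2 difference divided by the root of the F statistic. CPM are counts per 1000000 of the TMM-scaled library size. Shared words are the 50-base stretches of the principal transcript (GENCODE M21) also found, on either strand, in transcripts of other genes. The fit was tested on simulated data first.

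The named genes are Rplp0, Rplp1, Rplp2, Rps6, Rpsa and the paralogues, and for each comparison the 5 largest changes per direction (2 for related lists) that passed the test, reached 10 CPM and did not overlap. Other genes are named for counts or because a result turns on them, and were chosen after their values were seen. Values of some genes that this rule names are not reported here, while counts over the set include them. The members and lists were chosen with earlier results of these data known.

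Same-numbered samples deviated together across genes in normoxia between genotypes (r = 0.354, 0.149 and 0.228) and between normoxia and hypoxia in WT (0.368, 0.204 and 0.152), so blocked counts stand beside those results. The pairing comes from these correlations, not from the labels. Alternatives were DESeq2 1.42.0, other scalings and filters, the block, the lane, single samples left out, only the compared samples, and offsets for GC content and length.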

Additional observations from a re-analysis of the deposited data

Results flagged for a closer look

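Rows named as pseudogenes or copies of ribosomal protein genes are not among the 82 genes described above. There were 282 such rows, of which 226 had a count in any sample, and they took up to 0.0197% of a sample's counts, reached in TAZKo normoxia sample 1. The lowest share was 0.0155%, in WT hypoxia sample 3. The row with the most counts was Rpl3-ps1, a processed pseudogene on the X chromosome, with up to 1286 counts in a sample, against a mean of 597.8 counts for Rpl3 itself. Of the 282 rows, 29 passed the filter and were in the fit over all genes. In TAZKo against WT, 4 were higher and 2 lower in normoxia and 1 higher and 2 lower in hypoxia. Of all genes, 15.6% and 14.9%, and 15.8% and 16.9%, were called higher and lower there. In response to hypoxia, 3 were higher and 1 lower in WT and 4 higher and 0 lower in TAZKo. The shares over all genes were 26.0% and 25.0% in WT and 22.2% and 21.6% in TAZKo, and no test compared these rows with other genes. Rps13-ps1 was higher in TAZKo by 0.255 and 0.256 (edgeR adjusted p = 0.0106 and 0.00988), and Rps3a3 was higher in hypoxia by 0.37 in WT and 0.315 in TAZKo (edgeR adjusted p = 0.000916 and 0.00331), while Rpl3-ps1 passed in none of these comparisons. Both the share of counts and the level of Rpl3-ps1 are given because these rows form no part of the ribosomal protein set.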

How the results depend on the processing

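Counts were lowest for Rpl24, with a mean of 29 per sample, and differences in such genes may not be detectable at this depth. The offsets for GC content and length were chosen after seeing the data. Of 173 results on single genes, 136 passed the threshold, and 110 of these kept their call under every alternative. Over the alternatives other than leaving out a sample, 22 values were no longer past the threshold and 18 newly passed it. A further 2 changed sign and passed in the main or the alternative fit. Over those that left out a sample, 106 no longer passed, 7 newly passed and 1 changed sign in this way. Sign changes of values that passed in neither fit were not counted. The causes were not tested.

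The shares of all genes called in these alternative fits are not given here, so the counts are not set against them. In normoxia the genes lower in TAZKo numbered 4 with no filter, 4 with the replicate block, 5 with offsets and block and 1 with only the compared samples. In hypoxia the genes higher in TAZKo numbered 35 with offsets and block and 29 with only the compared samples, and the genes lower 3 with offsets, 3 with offsets and block and 1 with only the compared samples. In WT the genes higher in hypoxia numbered 4 with upper quartile scaling, 3 with library size alone, 4 with TMM without these genes, 5 with no filter, 19 with offsets, 22 with offsets and block and 3 with only the compared samples. The genes lower numbered 12, 16, 12 and 18 under the first 4 of these, 12 with the block and 11 with offsets and block. The WT median was -0.123 with library size alone and -0.098 with no filter. In TAZKo the genes higher in hypoxia numbered 7 with library size alone, 32 with offsets, 34 with offsets and block and 33 with only the compared samples, and the median was 0 with library size alone. For the difference of the responses 1 gene was higher with no filter, 1 with offsets and 3 with offsets and block. The share of counts, taken over the TMM-scaled library size, was 1.14% in WT hypoxia and 1.30% in TAZKo hypoxia. Rplp1 in WT, at -0.022 in the fit reported, differed by 0.108 with offsets, 0.108 with offsets and block and -0.171 to 0.146 with single samples left out.

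Leaving out single samples gave, in normoxia, 5 to 20 genes higher in TAZKo, 1 to 4 lower and medians of -0.061 to 0.086. In hypoxia it gave 11 to 30 higher, 0 to 1 lower and medians of 0.109 to 0.144. The hypoxia response gave 3 to 18 higher, 7 to 14 lower and -0.126 to 0.053 in WT, and 9 to 30 higher, 1 to 6 lower and 0.015 to 0.094 in TAZKo. The difference of the responses gave 0 to 0 genes in either direction and medians of 0.06 to 0.183.

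The replicate numbers met the criterion for pairing in 2 comparisons. In the other 2 the correlations were 0.055, -0.024 and 0.121 (genotypes in hypoxia) and 0.028, -0.024 and 0.095 (hypoxia in TAZKo), and the criterion was not met. Same-numbered WT and TAZKo samples of a condition lay on the same lane. In these 2 comparisons the replicate block gave 25 higher and 0 lower, and 26 higher and 5 lower.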

Other observations

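The Rps6k kinases, left out of the ribosomal proteins by their names, include the S6 kinases, of which Rps6 is a substrate. Of 8 Rps6k kinases tested, 1 was higher and 2 lower in TAZKo in normoxia, and 1 was higher and 4 lower in hypoxia, where 15.6% and 14.9%, and 15.8% and 16.9%, of all genes were called higher and lower. Rps6ka2 was higher in TAZKo by 0.67 ± 0.0822 in normoxia and 0.43 ± 0.0841 in hypoxia (SE, edgeR adjusted p = 3.81e-05 and 0.00153). Rps6ka4 was lower by 0.52 ± 0.0885 and 0.375 ± 0.0883 (SE, edgeR adjusted p = 0.000594 and 0.00518). In response to hypoxia, 1 was higher and 2 lower in WT, and 0 were higher and 2 lower in TAZKo, against 26.0% and 25.0%, and 22.2% and 21.6%, of all genes. Rps6kb2, an S6 kinase, fell by 0.41 in WT and 0.47 in TAZKo (edgeR adjusted p = 0.000803 and 0.000417). Rps6kb1, the other S6 kinase, differed by 0.08 in WT and -0.01 in TAZKo, with adjusted p of 0.646 and 0.97. These kinases were chosen for mention after their values were seen.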
